A study of Mus musculus with 9 samples.

Results

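Fibroblast growth factor (FGF) receptors, their ligands and a carrier protein were followed in cultured mouse cells as the mRNA of 10 genes, among 47729 genes in the count table. The genes were chosen by name: the tyrosine kinase receptors Fgfr1, Fgfr2, Fgfr3 and Fgfr4, the kinase-less receptor Fgfrl1, the secreted ligands Fgf1, Fgf2 and Fgf5, the intracellular family member Fgf13 and the binding protein Fgfbp3. All 10 were found in the table. RNA was sequenced from 9 libraries in 3 groups of 3. LTR (cultures 1 to 3) and NF1 (cultures 1 to 3) are tumour cells derived from neural stem cells, with lgT/Ras as the genotype label of LTR and shp53 with Nf1-/- and CDK4 as that of NF1. NSC (cultures 1, 3 and 5) are primary stem cells of wild-type genotype, taken from the subventricular zone, which lines the lateral ventricles and produces new cells. All cultures were grown under one stem cell protocol for up to 10 passages, and no source used here gives its growth factors. The series names 3 separate cultures per group, and whether the tumour cultures were transformed separately is not given.

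FGFs are secreted growth factors that bind receptor tyrosine kinases on the cell surface together with heparan sulphate, a sugar chain carried by proteoglycans. The activated receptor phosphorylates the adaptor FRS2, which passes the signal through GRB2, SOS and Ras to the MAP kinases, and target genes such as the Sprouty, Spred and Dusp families damp it again. In neural stem cells, FGF receptor signalling is known for keeping the cells dividing, and recombinant FGF2 is a usual additive of their medium.

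Total counts ran from 28600479 in LTR 2 to 57231024 in NSC 3. Levels are given as CPM, counts scaled to library size after TMM correction, and 3 counts correspond to 0.0541 to 0.114 CPM, depending on the library. The library NF1 2 stood apart from all others: on the first principal component, which held 70.6% of the variance, it lay at -21.2, between NF1 1 and NF1 3 (85.1 and 108.7) or LTR (84.6 to 92.2) and NSC (-150.4 to -136.3). Trp53, which the label shp53 would place lower, was at 217.0, 151.0 and 221.0 CPM in the libraries labelled NF1 1, 2 and 3, above 107.6 ± 6.20 CPM in NSC (SD, n = 3). Cdk4 was at 794.8 and 1123.7 CPM in NF1 1 and NF1 3, but at 392.9 CPM in NF1 2, inside the NSC range, which reached 455.7 CPM. Nf1 was at 59.0, 97.2 and 40.1 CPM in NF1 1, 2 and 3, against 82.5 to 114.0 CPM in NSC, and at 40.3 to 80.0 CPM in LTR. NF1 2 thus lay inside the NSC range, and which exons the Nf1 deletion removes is not given. The NSC libraries carry a different sequencing lane in their names than the LTR and NF1 libraries, so in comparisons with NSC the effects of group and lane cannot be told apart.

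Neural stem cell and glial markers bear on what the cells are. Summed over a list of 9 neural stem cell markers, 6753.1 to 12600.8 CPM were found in LTR, 11147.2 to 13135.2 CPM in the libraries labelled NF1 and 12624.1 to 13302.2 CPM in NSC. Vim alone gave 6073.2 to 11413.1 CPM of this in LTR, 10039.2 to 10707.6 CPM in NF1 and 6134.5 to 7443.0 CPM in NSC. None of the 9 was at 0 in any group, but Slc1a3 held only 0, 3 and 3 counts in LTR 1, 2 and 3. Of the 9 markers, 5 fell and 1 rose in LTR against NSC, and 3 fell in NF1 against NSC. Among all tested genes, 35.9% and 23.1% were called in these comparisons. Sox2 and Nes did not pass the test in LTR or NF1 against NSC, whereas Fabp7 averaged 7.88 CPM in LTR, 116.6 CPM in NF1 and 3151.5 CPM in NSC, and its call was made for LTR only (adjusted p = 0.0116 and 0.0719 for LTR and NF1 by the edgeR test described next).

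Groups were compared by the quasi-likelihood F test of edgeR with Benjamini-Hochberg adjustment over the 15696 genes that passed the filter on low counts, and a gene was called at an adjusted p under 0.05. Fgfr4 and Fgf5 did not pass the filter, so 8 of the 10 genes were tested. In LTR against NSC, 5 of the 8 were called, all lower: Fgfr1, Fgfr2, Fgfr3, Fgfrl1 and Fgf1. Over all tested genes 35.9% were called in that comparison, 14.9% higher and 20.9% lower. In NF1 against NSC, 5 of the 8 were also called, all lower: Fgfr1, Fgfr2, Fgfrl1, Fgf1 and Fgf13. There 23.1% of all tested genes were called, 10.1% higher and 13.1% lower. The median log2 fold change of the 8 genes was -1.72 in LTR and -2.29 in NF1, beside -0.06 and 0.00 over all tested genes. The genes were chosen with earlier results of these data known, so these shares and medians describe the set and do not test it. The comparisons share the NSC libraries. In bulk RNA, fewer cells of a type and less RNA per cell cannot be told apart.

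**Figure D1:**
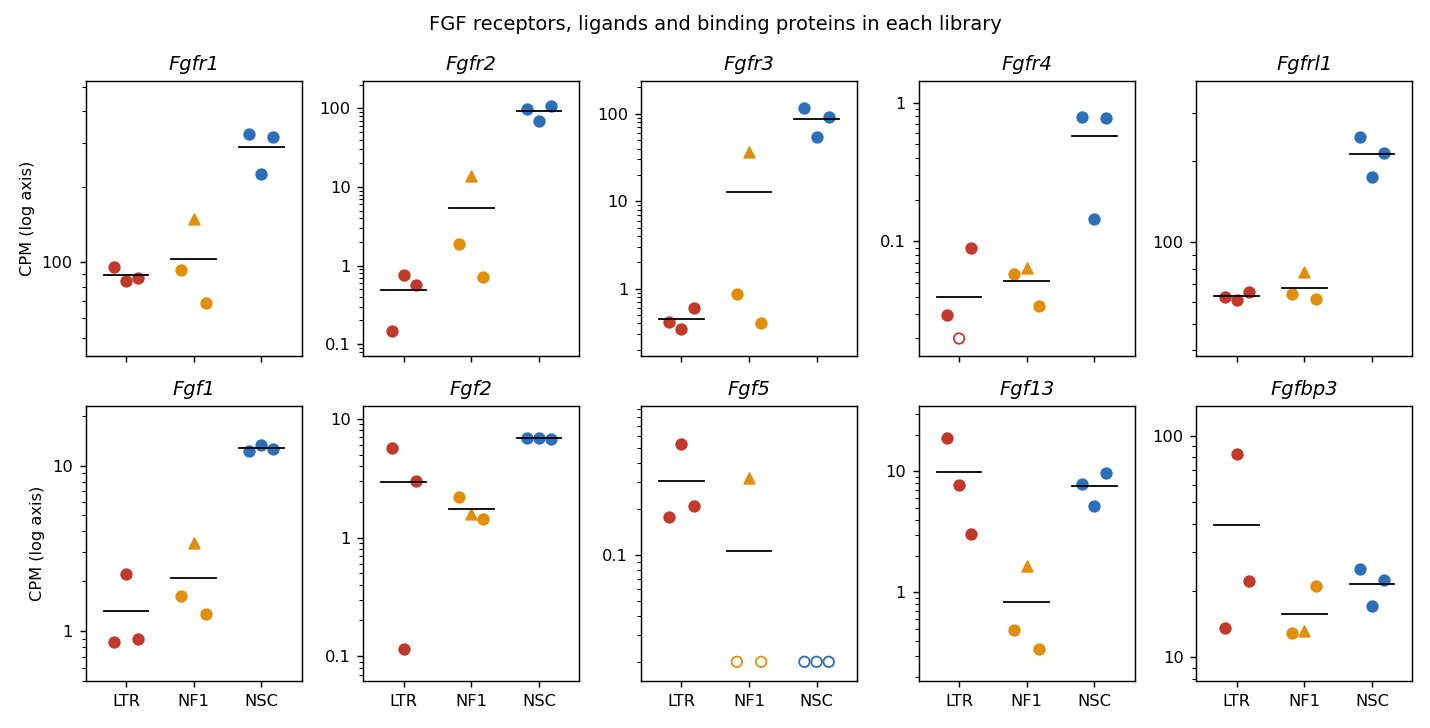
Level of each of the 10 genes in every library, in TMM-scaled CPM on a log axis, with LTR, NF1 and NSC from left to right; horizontal lines are group means, triangles mark NF1 2 and open circles are libraries with 0 counts, drawn at 0.02 CPM. Fgfr1, Fgfr2, Fgfr3, Fgfrl1 and Fgf1 lie lower in every LTR and NF1 library than in every NSC library, and NF1 2 is the highest NF1 library for each of these 5.

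Fgfr1 (ENSMUSG00000031565, chromosome 8, 25513654 to 25575718 in GRCm38) encodes the receptor that FGF2 is best known to signal through in neural progenitors. It was at 95.8, 84.5 and 86.7 CPM in LTR 1, 2 and 3, at 93.0, 148.7 and 68.7 CPM in NF1 1, 2 and 3, and at 325.6, 225.5 and 315.3 CPM in NSC 1, 3 and 5. Every tumour library lay below every NSC library, and the highest tumour value was that of NF1 2. Fgfr1 fell 3.24-fold in LTR (log2 fold change -1.70 ± 0.29, SE; adjusted p = 0.00318) and 2.79-fold in the libraries labelled NF1 (-1.48 ± 0.28; adjusted p = 0.00737).

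Fgfr2 (ENSMUSG00000030849, chromosome 7, 130162451 to 133123350) encodes a receptor known for its splice forms in epithelium and mesenchyme and for its expression in glia. Its level was 0.148, 0.763 and 0.567 CPM in LTR 1, 2 and 3, it was 1.88, 13.7 and 0.717 CPM in NF1 1, 2 and 3, and it was 98.8, 68.3 and 107.0 CPM in NSC 1, 3 and 5. The groups did not overlap with NSC, and NF1 2 stood 7.27-fold above the next NF1 library. Fgfr2 fell 187-fold in LTR (-7.55 ± 1.17; adjusted p = 0.00228), where the 3 LTR libraries held 44 counts together. In the libraries labelled NF1 it fell 16.8-fold (-4.07 ± 0.97; adjusted p = 0.0171). Without NF1 2 the fall was 68.8-fold (-6.10; adjusted p = 0.000176), and without NF1 1 the call was lost (-3.65; adjusted p = 0.0594). A stretch of 314 exon bases, 3.04% of the gene's exon length, is shared on the same strand with Ctbp2, which held 34433 counts in the 9 libraries. How reads from these bases were counted is not known, so the low Fgfr2 counts in LTR and their 187-fold value are uncertain to that extent.

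Fgfr3 (ENSMUSG00000054252, chromosome 5, 33721674 to 33737068) encodes a receptor known as a marker of astrocytes and radial glia in the developing brain. LTR 1, 2 and 3 held 0.415, 0.343 and 0.597 CPM, NF1 1, 2 and 3 held 0.869, 36.6 and 0.410 CPM, and NSC 1, 3 and 5 held 117.7, 54.0 and 92.8 CPM. NF1 2 was 42.1-fold above the next NF1 library and still below the lowest NSC library. Fgfr3 fell 192-fold in LTR (-7.59 ± 1.66; adjusted p = 0.00866), with 43 counts in the 3 LTR libraries together. The difference between NF1 and NSC did not pass (-2.80 ± 1.29; adjusted p = 0.141), although no NF1 library reached the NSC range. Without NF1 2 it passed, at 134-fold lower (-7.07 ± 0.52; adjusted p = 3.81e-05). On the other strand, G630022F23Rik shares 998 exon bases, 13.9% of the exon length of Fgfr3, and held 91 counts in all 9 libraries. How reads from these bases were counted is not known, so the Fgfr3 counts are uncertain to that extent.

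Fgfr4 (ENSMUSG00000005320, chromosome 13, 55152640 to 55168759) encodes the receptor best known from liver and muscle. It was close to the detection limit, with 1, 0 and 3 counts in LTR 1, 2 and 3, with 2, 2 and 1 counts in NF1 1, 2 and 3, and with 30, 8 and 29 counts in NSC 1, 3 and 5. Per library size the summed counts were 12.0-fold lower in LTR (4 counts against 67; exact 95% interval 4.47 to 45.3) and 9.76-fold lower in the libraries labelled NF1 (5 counts against 67; 3.98 to 31.0). The intervals cover counting error only. The gene was below the filter, and in a fit without the filter, where 20.8% of genes were called in LTR and 13.7% in NF1, it was called lower in both (adjusted p = 0.0194 and 0.0374).

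Fgfrl1 (ENSMUSG00000008090, chromosome 5, 108692382 to 108706924) encodes a receptor-like protein that binds FGFs and heparin but lacks the tyrosine kinase domain. It was at 62.8, 61.3 and 65.8 CPM in LTR 1, 2 and 3, at 64.3, 77.5 and 61.6 CPM in NF1 1, 2 and 3, and at 245.3, 174.8 and 214.7 CPM in NSC 1, 3 and 5. The tumour libraries formed a narrow band, with NF1 2 at its top, well below NSC. Fgfrl1 had the smallest relative error among the 8 genes: it fell 3.34-fold in LTR (-1.74 ± 0.18; adjusted p = 0.000764) and 3.12-fold in the libraries labelled NF1 (-1.64 ± 0.18; adjusted p = 0.00119).

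The promoters of the receptors that moved together are shown for Fgfr2, Fgfr3 and Fgfrl1, to set a receptor gene with few CG dinucleotides beside 2 with many. Each run is the 300 bases from 250 before to 50 after a RefSeq gene start in GRCm38.p6, read 5′ to 3′ on the gene's strand, with CG dinucleotides in capitals. RefSeq windows were matched for 8 of the 10 genes, and Fgfr1 and Fgf1 had none. Fgfr3 has a second start, whose window held 30 CG dinucleotides at 73.0% GC, 2 GC boxes (GGGCGG) and no E-box (CANNTG), and the first is shown. The Fgfr2 window lies at chr7:130266759-130267058 on the minus strand, the Fgfr3 window at chr5:33721474-33721773 on the plus strand, and the Fgfrl1 window at chr5:108693979-108694278 on the plus strand.
Fgfr2: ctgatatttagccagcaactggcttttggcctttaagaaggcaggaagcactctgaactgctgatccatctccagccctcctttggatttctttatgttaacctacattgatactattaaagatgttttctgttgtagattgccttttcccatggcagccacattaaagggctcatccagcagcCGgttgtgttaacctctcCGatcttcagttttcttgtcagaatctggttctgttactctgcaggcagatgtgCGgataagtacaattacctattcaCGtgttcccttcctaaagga
Fgfr3: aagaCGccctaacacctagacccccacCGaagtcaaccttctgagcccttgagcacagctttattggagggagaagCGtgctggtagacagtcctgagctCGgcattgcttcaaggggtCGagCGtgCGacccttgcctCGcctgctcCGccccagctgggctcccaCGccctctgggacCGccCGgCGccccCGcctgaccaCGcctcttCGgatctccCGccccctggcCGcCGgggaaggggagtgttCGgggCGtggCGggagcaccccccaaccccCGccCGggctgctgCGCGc
Fgfrl1: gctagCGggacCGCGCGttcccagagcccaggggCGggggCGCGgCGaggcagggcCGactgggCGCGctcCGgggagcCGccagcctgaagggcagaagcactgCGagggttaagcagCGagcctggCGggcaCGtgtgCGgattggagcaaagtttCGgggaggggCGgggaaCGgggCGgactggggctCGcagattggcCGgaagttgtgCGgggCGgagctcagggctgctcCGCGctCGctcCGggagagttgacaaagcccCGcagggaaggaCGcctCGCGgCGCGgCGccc

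The Fgfr2 window held 4 CG dinucleotides at a GC content of 43.7%, the Fgfr3 window 26 at 69.7% and the Fgfrl1 window 37 at 73.7%. Over 32851 promoter windows of the same length the median was 7 CG dinucleotides and 52.7% GC, and 68.6%, 16.9% and 5.58% of windows held as many as those of Fgfr2, Fgfr3 and Fgfrl1. The GC box GGGCGG occurred 4 times each in the Fgfr3 and Fgfrl1 windows and not in that of Fgfr2, and 35.7% of all windows held it. The E-box CANNTG occurred 3 times in the Fgfr2 window and once each in the others (72.3% of all windows). The RBPJ motif TGGGAA occurred once in the Fgfr2 and Fgfrl1 windows and not in that of Fgfr3 (25.6% of all windows). All motifs were searched on both strands, and neither TATAAA (13.6%) nor TGANTCA (7.81%) was found in the 3 windows. These are matches of letters, and binding was not measured. Whether promoter sequence bears on the falls of these genes was not tested. The Fgfr2 window lies inside the annotated span of the gene, which on the minus strand begins at 133123350, and no window at that end was matched.

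Divided by exon length, the levels show which receptor dominates. Summed over Fgfr1 to Fgfr4, receptor mRNA reached 9.13 ± 0.575 CPM per kilobase in LTR, 9.74, 21.5 and 7.10 CPM per kilobase in NF1 1, 2 and 3, and 50.6 ± 11.9 CPM per kilobase in NSC (SD, n = 3 where given). Fgfr1 made up 98.6 ± 0.504% of this sum in LTR, 96.7%, 70.0% and 98.1% in NF1 1, 2 and 3, and 58.3 ± 3.05% in NSC. Both the sum and the mix thus separated the tumour libraries from NSC, with NF1 2 between the others.

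Fgfr3 contributed 0.693 ± 0.209% in LTR, 1.25%, 23.8% and 0.806% in NF1 1, 2 and 3, and 23.8 ± 3.73% in NSC. Fgfr2 contributed 0.537 ± 0.358% in LTR, 1.87%, 6.17% and 0.978% in NF1 1, 2 and 3, and 17.6 ± 1.29% in NSC. Fgfr4 stayed at or under 0.396% in every library. In share, Fgfr3 of NF1 2 was inside the NSC range of 20.4% to 27.8%, while its level was not. In the order of per-length levels, Fgfr1 stood above Fgfr3 and Fgfr3 above Fgfr2 in each NSC library, although with the longest transcript as gene length the mean NSC shares were 20.6% for Fgfr3 and 20.9% for Fgfr2. Fgfr2 and Fgfr3 could not be ordered in LTR (0.0477 ± 0.0304 and 0.0631 ± 0.0183 CPM per kilobase). Fgfrl1, counted outside this sum, was above Fgfr1 per kilobase in all groups, at 22.8 ± 0.828 CPM per kilobase in LTR, 24.4 ± 3.07 in NF1 and 76.1 ± 12.7 in NSC.

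**Figure D2:**
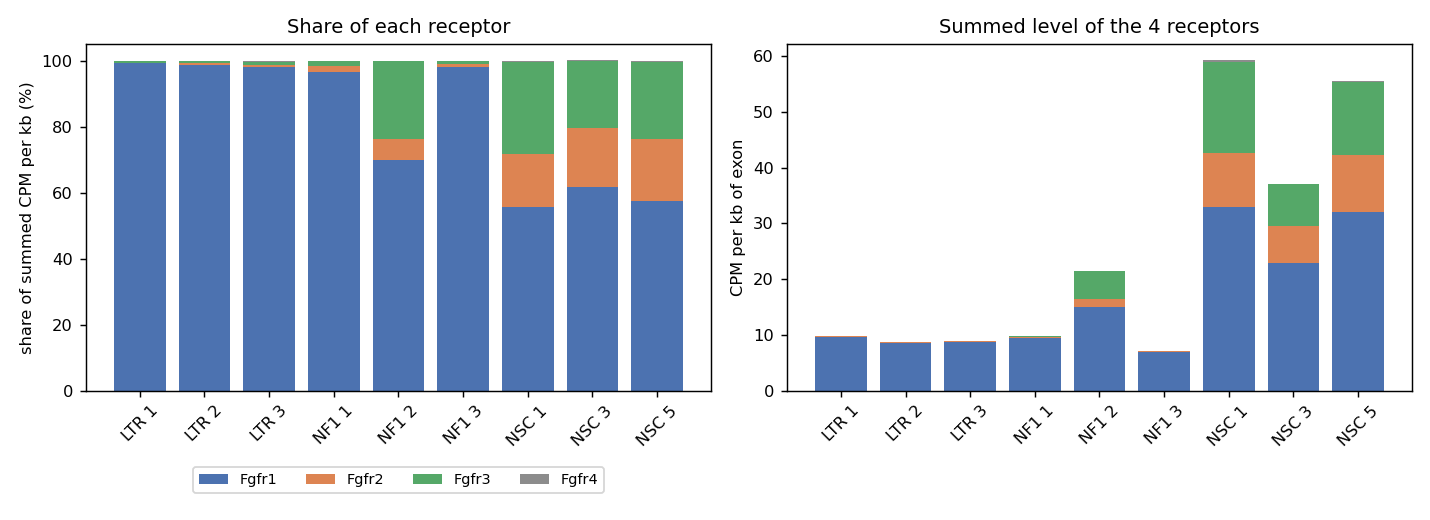
Left, share of Fgfr1, Fgfr2, Fgfr3 and Fgfr4 in their summed CPM per kilobase of exon, in percent, for each library; right, that sum in CPM per kilobase. Fgfr1 alone makes up nearly all of the sum in LTR, NF1 1 and NF1 3, whereas NSC and NF1 2 hold 70.0% or less of it as Fgfr1, and the sums of all LTR and NF1 libraries lie under the lowest NSC sum of 37.0.

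Among the secreted ligands, Fgf1 (ENSMUSG00000036585, chromosome 18, 38838673 to 38929472), the acidic FGF that can bind all FGF receptors, was called, whereas Fgf2 was not and Fgf5 was below the filter. It was at 0.860, 2.21 and 0.896 CPM in LTR 1, 2 and 3, at 1.62, 3.43 and 1.26 CPM in NF1 1, 2 and 3, and at 12.3, 13.3 and 12.6 CPM in NSC 1, 3 and 5. NSC libraries were close to one another and above all tumour libraries. Fgf1 fell 9.66-fold in LTR (-3.27 ± 0.54; adjusted p = 0.00283) and 6.05-fold in the libraries labelled NF1 (-2.60 ± 0.52; adjusted p = 0.00856).

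Fgf2 (ENSMUSG00000037225, chromosome 3, 37348346 to 37410108), the basic FGF, was not called in either comparison with NSC. LTR 1, 2 and 3 had 5.75, 0.114 and 2.99 CPM, NF1 1, 2 and 3 had 2.20, 1.57 and 1.43 CPM, and NSC 1, 3 and 5 had 6.86, 6.97 and 6.78 CPM. All tumour libraries were below NSC, yet LTR spread widely, since LTR 2 held only 3 counts. The differences were -1.21 ± 0.88 in LTR (adjusted p = 0.301) and -1.98 ± 0.90 in the libraries labelled NF1 (adjusted p = 0.138). Without LTR 2, the difference between NF1 and NSC was of the same size and passed (-1.89; adjusted p = 0.0131). Nudt6 on the opposite strand shares 640 exon bases with Fgf2, 9.44% of its exon length, and held 629 counts in the 9 libraries. The library kit does not keep the strand, so reads from these bases cannot be told apart.

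Fgf5 (ENSMUSG00000029337, chromosome 5, 98254184 to 98277030), known as a regulator of the hair cycle and as a gene of the primed pluripotent state, had counts in tumour libraries alone. It had 6, 14 and 7 counts in LTR 1, 2 and 3, it had 0, 10 and 0 counts in NF1 1, 2 and 3, and it had no count in NSC. All 3 LTR libraries held counts, and within the libraries labelled NF1 only NF1 2 did. Summed over the group, LTR was at least 4.19-fold higher than NSC, taking 3 counts in each NSC library as the floor. The gene was under the filter, and in the fit without the filter it was called higher in LTR (adjusted p = 0.0246) and not in NF1 (adjusted p = 0.11).

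Fgf13 (ENSMUSG00000031137, chromosome X, 59062145 to 59568071) belongs to the FGF homologous factors, which are not secreted, bind voltage-gated sodium channels and, in neurons, microtubules. It was at 18.9, 7.78 and 3.05 CPM in LTR 1, 2 and 3, at 0.493, 1.66 and 0.341 CPM in NF1 1, 2 and 3, and at 7.86, 5.18 and 9.65 CPM in NSC 1, 3 and 5. LTR overlapped with NSC, whereas all libraries labelled NF1 were below both other groups. In LTR the difference did not pass (0.39 ± 0.71; adjusted p = 0.69). In the libraries labelled NF1 Fgf13 fell 9.04-fold against NSC (-3.18 ± 0.79; adjusted p = 0.0203). Without NF1 2 the fall was 17.7-fold (-4.15; adjusted p = 0.00334). The call was lost without NSC 1, NSC 5, NF1 1 or NF1 3, with adjusted p between 0.0534 and 0.0746 at log2 fold changes between -3.15 and -2.85.

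Fgfbp3 (ENSMUSG00000047632, chromosome 19, 36917550 to 36919615) encodes a secreted carrier that binds FGFs and can release them from the matrix. LTR 1, 2 and 3 had 13.6, 82.5 and 22.1 CPM, NF1 1, 2 and 3 had 12.9, 13.1 and 21.0 CPM, and NSC 1, 3 and 5 had 25.1, 17.0 and 22.3 CPM. All groups overlapped, and LTR 2 stood alone at the top. It was not called in LTR (0.87 ± 0.58; adjusted p = 0.256) or in NF1 (-0.46 ± 0.57; adjusted p = 0.585), and the sign in LTR turned without LTR 2 (-0.15). LTR 2 was thus the library with the highest Fgfbp3, Fgf1 and Fgf5 of its group and the lowest Fgf2.

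**Figure D3:**
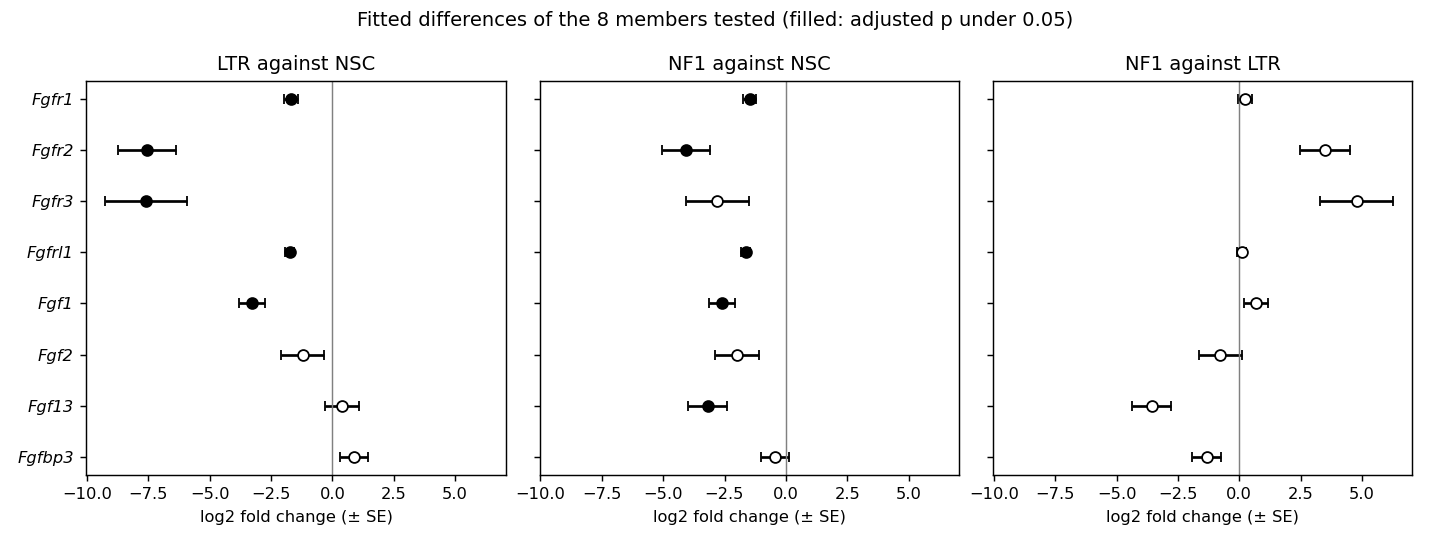
Log2 fold change ± SE of the 8 tested genes in LTR against NSC, NF1 against NSC and NF1 against LTR, from the edgeR fit of all 9 libraries; filled symbols passed an adjusted p of 0.05. The 5 calls in LTR against NSC and the 5 in NF1 against NSC all lie below 0, and no symbol is filled for NF1 against LTR, where Fgfr2, Fgfr3 and Fgf13 have the largest distances from 0.

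The groups' libraries did not overlap for 6 of the 8 tested genes in LTR against NSC, where 59% of all tested genes did not overlap, and for 7 of the 8 in NF1 against NSC, where 42.3% did not. Below the filter, Fgfr4 lay lower without overlap in both comparisons, and Fgf5 lay higher without overlap in LTR against NSC only. The shares above do not cover genes below the filter. Fgfr1, Fgfr2, Fgfrl1 and Fgf1 were called in both comparisons, and Fgfr3 and Fgf13 each in one. Whether the tumour groups differ in these genes was tested directly.

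In NF1 against LTR, none of the 8 genes was called by edgeR, and neither was any of the 15696 tested genes (0%), with a smallest adjusted p of 0.122. At an unadjusted p under 0.05 there were 1596 genes (10.2%), among them 4 of the 8. The differences were 3.48 ± 1.02 for Fgfr2 (adjusted p = 0.345), 4.78 ± 1.5 for Fgfr3 (adjusted p = 0.379), -3.57 ± 0.80 for Fgf13 (adjusted p = 0.239) and -1.33 ± 0.58 for Fgfbp3 (adjusted p = 0.484). Fgf13 was the only gene of the 10 whose NF1 and LTR libraries did not overlap, where 12.5% of all tested genes did not. Without NF1 2 the differences were 1.45 for Fgfr2 (adjusted p = 0.476) and 0.50 for Fgfr3 (adjusted p = 0.956), and the difference in Fgf13 was -4.55 (adjusted p = 0.0689). DESeq2, run as an alternative, called Fgfr2 (3.39; adjusted p = 0.00908), Fgfr3 (4.72; adjusted p = 0.0338) and Fgf13 (-3.63; adjusted p = 0.000138) among 330 genes (2.1%).

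NF1 2 set the spread of the receptor genes in its group. Relative to the NSC mean it held 51.5% of Fgfr1, 41.5% of Fgfr3 and 15% of Fgfr2, whereas NF1 1 and NF1 3 averaged 28%, 0.725% and 1.42%. For Fgf1, Fgf13 and Fgfrl1 it held 26.9%, 22% and 36.6% of the NSC mean, against 11.3%, 5.51% and 29.7% in NF1 1 and NF1 3. For Fgf2 and Fgfbp3 it was not the highest of its group. Without NF1 2, 9 of the 10 genes passed the filter and 7 of them were called in NF1 against NSC, all lower: Fgfr1, Fgfr2, Fgfr3, Fgfr4, Fgfrl1, Fgf1 and Fgf13. Over all genes of that fit, 42.2% were called and 24.5% were called lower, and Fgfr4 passed its filter through NSC, with 2 and 1 counts in NF1 1 and NF1 3.

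Markers of other cell types moved with these genes. Summed over 5 astrocyte markers, LTR held 57.8 to 102.1 CPM, the libraries labelled NF1 held 63.7 to 591.3 CPM, with NF1 2 at the top, and NSC held 1286.9 to 1860.1 CPM. All 5 fell in LTR, 3 of 5 fell in NF1, and none was at 0 in any group. Among all tested genes, 20.9% were called lower in LTR against NSC and 13.1% in NF1 against NSC. These shares apply to the counts of falling markers below as well. The 7 oligodendrocyte lineage markers summed to 114.2 to 209.1 CPM in LTR, to 122.5 to 1188.4 CPM in NF1, again with NF1 2 highest, and to 2554.5 to 3223.4 CPM in NSC. Of the 6 that were tested, 3 fell in each comparison, and Sox10 was at 0 in NF1.

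For 5 neuronal markers the sum was 21.3 to 66.3 CPM in LTR, 19.1 to 43.0 CPM in NF1 and 207.4 to 291.7 CPM in NSC, with Rbfox3 at 0 in LTR and NF1. Map2 alone gave 179.3 to 260.7 CPM of the sum in NSC. Of the 4 neuronal markers that were tested, 3 fell in LTR and 2 in NF1, beside 20.9% and 13.1% of all tested genes called lower. Tubb3 averaged 34.8, 25.0 and 27.1 CPM in LTR, NF1 and NSC and was not called in either comparison with NSC. The 6 mural cell and fibroblast markers summed to 2.87 to 5.49 CPM in LTR, 2.39 to 40.4 CPM in NF1 and 43.4 to 1034.1 CPM in NSC, where NSC 3 was lowest, and all 3 that were tested fell in both comparisons. Endothelial markers stayed at or below 7.52 CPM and microglial and myeloid markers at or below 2.92 CPM in every library, where Cdh5, 1 of 3 tested endothelial markers, rose in LTR (2.7 ± 0.71; adjusted p = 0.0176) and in NF1 (3.3 ± 0.72; adjusted p = 0.012). Among all tested genes, 14.9% were called higher in LTR against NSC and 10.1% in NF1 against NSC. Cldn5 was at 0 in all groups and Itgam, Cx3cr1 and Tyrobp were at 0 in LTR and NF1. The part of glial, neuronal and mural cell content in the fall of the FGF receptors was not tested.

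Other genes of the pathway were taken from lists drawn up by function, with the shares of all tested genes called, 35.9% and 23.1%, as background. Of 18 other FGF genes only 5 passed the filter, and 2 of these fell in LTR and 2 in NF1. Fgf12, another intracellular FGF, was at 0, 0.114 and 0 CPM in LTR 1, 2 and 3, at 0, 0.064 and 0 CPM in NF1 1, 2 and 3, and at 3.65, 4.31 and 3.81 CPM in NSC 1, 3 and 5. It fell in LTR (adjusted p = 0.00317) and in NF1 (adjusted p = 0.00379). With a total of 3 and 2 counts in these groups against 519 in NSC, the ratio was 124-fold (exact 95% interval 42.2 to 603) and 189-fold (52.1 to 1560). These intervals pool the reads of 3 cultures and cover counting error only, and the gene passed the filter through NSC alone. Fgf14, of the same subfamily, fell in both as well (-3.6 ± 1.07 and -3.62 ± 1.07, the NF1 value being -4.62 without NF1 2), although its NSC libraries ranged from 1.01 to 7.45 CPM. Thus 2 of 3 other FGF homologous factors fell in LTR, where Fgf13 was not called, and Fgf11 was not called in either comparison (-1.01 ± 0.44 and -0.95 ± 0.44).

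Fgf7, the keratinocyte growth factor, a ligand of an epithelial splice form of Fgfr2, was called higher in NF1, the only FGF gene so called with the filter on low counts. It was at 10.5, 0.064 and 8.60 CPM in NF1 1, 2 and 3 and at 0.556, 0.0902 and 0.456 CPM in NSC 1, 3 and 5, a rise of 4.13 ± 1.32 (adjusted p = 0.0497). NF1 2 did not share it, and without NF1 2 the value was 4.74 (adjusted p = 0.000716). In LTR, at 0.504, 0.725 and 1.04 CPM, it was not called (1.06 ± 1.23; adjusted p = 0.519).

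**Figure D4:**
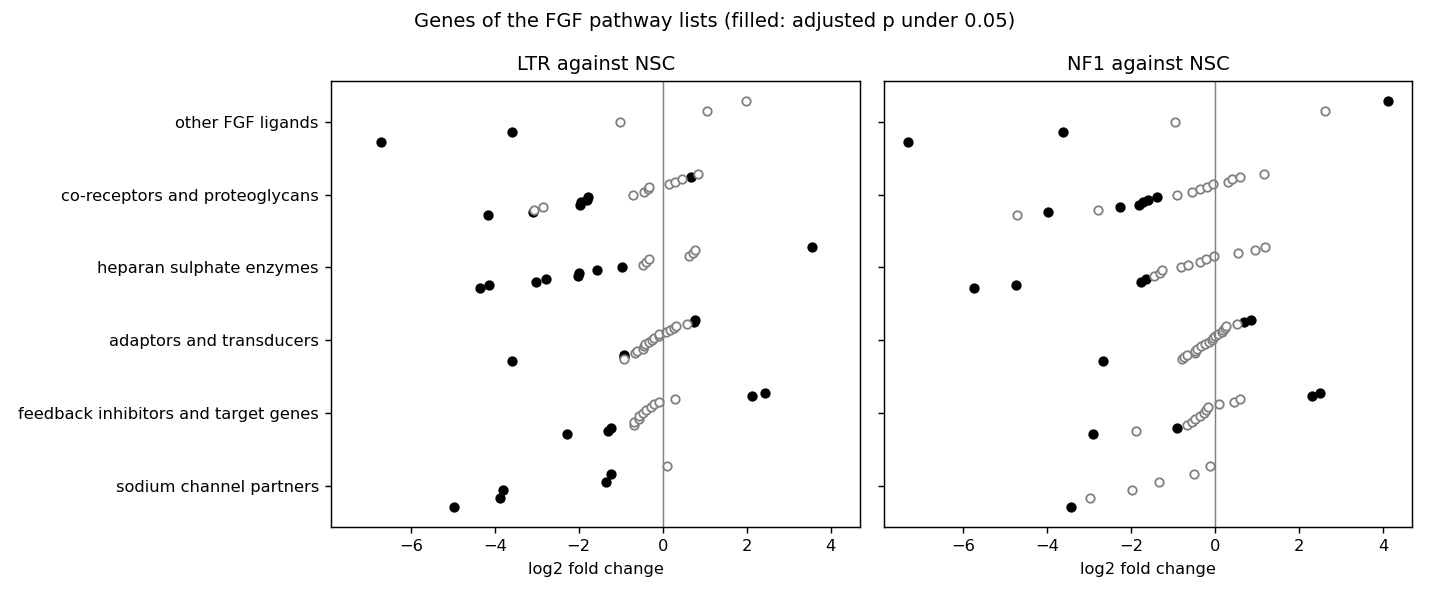
Log2 fold change of each tested gene of 6 FGF pathway lists in LTR against NSC and in NF1 against NSC; filled symbols passed an adjusted p of 0.05. Co-receptors, heparan sulphate enzymes and sodium channels have medians from -2.59 to -0.7, while adaptors and transducers have medians of -0.25 and -0.08, and the filled symbols above 2 are Hpse in LTR, Fgf7 in NF1, and Dusp5 and Fosl1 in both.

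Co-receptors and proteoglycans help FGFs to reach their receptors. Of 17 tested members 6 fell and 1 rose in LTR, and 6 fell in NF1 (medians -0.7 and -0.91). The glypican Gpc4, a membrane-anchored heparan sulphate carrier, averaged 24.3 ± 4.17 CPM in LTR, 27.6 ± 16.6 CPM in NF1 and 437.5 ± 218.7 CPM in NSC, and fell in both (-4.17 ± 0.54 and -3.98 ± 0.53; adjusted p = 0.00131 and 0.002), the NF1 value being -4.58 without NF1 2. Gpc6 fell as well (-1.97 ± 0.22 and -1.81 ± 0.22). The adhesion molecules Ncam1 and Cdh2 (N-cadherin), which can bind Fgfr1, fell in LTR (-1.95 ± 0.24 and -1.78 ± 0.28) and in NF1 (-1.59 ± 0.24 and -1.39 ± 0.27). Gpc1, the most abundant member that did not pass, averaged 181.0, 201.8 and 164.5 CPM in LTR, NF1 and NSC. The single member that rose in LTR was the syndecan Sdc1 (0.68 ± 0.23; adjusted p = 0.0443), named after its value was seen.

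All 15 heparan sulphate enzymes were tested, and 8 fell and 1 rose in LTR, while 4 fell in NF1 (medians -0.96 and -0.81). Ext1, which builds the chain, fell in LTR (-2.01 ± 0.27; adjusted p = 0.00143) and in NF1 (-1.77 ± 0.27; adjusted p = 0.00289). Sulf2, an extracellular enzyme that removes sulphate groups from the chain, averaged 35.8 CPM in LTR, 93.8 CPM in NF1 and 291.5 CPM in NSC (-3.02 ± 0.47 and -1.64 ± 0.44, with -2.32 in NF1 without NF1 2). Hs3st1, a sulphotransferase, fell too (-4.13 ± 0.94 and -5.74 ± 1.04). It held 1, 23 and 4 counts in LTR 1, 2 and 3 and 2, 4 and 4 counts in NF1 1, 2 and 3. In NSC 1, 3 and 5 it held 241, 268 and 237 counts, and it passed the filter through NSC. Ndst1, which starts sulphation, fell in LTR (-2.0 ± 0.43; adjusted p = 0.0082), and in NF1 its value of -1.31 ± 0.42 was not called (adjusted p = 0.0507). Hs2st1 was not called in either. Hpse, an enzyme that cleaves the chain, was the one that rose in LTR (3.55 ± 0.62; adjusted p = 0.00366), and Hs3st3b1 completed the 4 that fell in NF1 (-4.75 ± 1.25, and -7.31 without NF1 2), both named after their values were seen. Without NF1 2, 10 of the 15 were called in NF1 against NSC, 2 higher and 8 lower, where 42.2% of all genes were called.

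The 21 adaptors and transducers between receptor and MAP kinase had medians near 0 (-0.25 in LTR and -0.08 in NF1). In LTR 2 rose and 3 fell, and in NF1 2 rose and 1 fell. Gab1, a docking protein of receptor tyrosine kinases, had the largest difference: 7.23, 9.12 and 7.52 CPM in LTR 1, 2 and 3, then 12.0, 26.0 and 7.51 CPM in NF1 1, 2 and 3, and 111.5, 62.6 and 113.5 CPM in NSC 1, 3 and 5. The log2 fold change was -3.59 ± 0.46 in LTR (adjusted p = 0.00131) and -2.66 ± 0.44 in NF1 (adjusted p = 0.00431, and -3.28 without NF1 2). The kinase gene Map2k2 rose in LTR (0.75 ± 0.18; adjusted p = 0.0111) and was not called in NF1 (0.51 ± 0.17; adjusted p = 0.0633). Hras rose in NF1 (0.85 ± 0.25; adjusted p = 0.0367). In LTR, labelled lgT/Ras, Hras was not called (0.57 ± 0.25; adjusted p = 0.0991), nor was it in NF1 against LTR (0.28 ± 0.25; adjusted p = 0.741). The remaining calls, named after their values were seen, were the adaptor Shc1, which rose in LTR (0.77 ± 0.22) and NF1 (0.69 ± 0.21), and Gab2 and Braf, which each fell in LTR (-0.91). Without NF1 2, 6 of the 21 were called in NF1, 3 in each direction, a smaller share than the 42.2% of all genes called in that fit.

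Of 15 tested feedback inhibitors and target genes, 2 rose and 3 fell in LTR, and 2 rose and 2 fell in NF1. Dusp5, a nuclear phosphatase of ERK, averaged 104.2 ± 42.0 CPM in LTR, 94.9 ± 17.1 CPM in NF1 and 19.2 ± 1.56 CPM in NSC, and rose by 2.44 ± 0.31 and 2.30 ± 0.31 (adjusted p = 0.0013 and 0.00206). Fosl1, an AP-1 subunit induced by ERK signalling, rose by 2.14 ± 0.31 and 2.49 ± 0.32. Against these, Etv5 (-1.30 ± 0.24 and -0.90 ± 0.24) and Egr1 (-2.29 ± 0.68 and -2.92 ± 0.70), transcription factors also induced by FGF or ERK signalling, fell in LTR and NF1, and the inhibitor Spred2 fell in LTR (-1.24 ± 0.35), all 3 named after their values were seen. The NSC libraries of Egr1 ranged from 59.0 to 422.1 CPM. Spred1, the most abundant that did not pass, averaged 220.1, 233.7 and 301.9 CPM in LTR, NF1 and NSC. Of the 15, 10 were not called in LTR and 11 not in NF1. Among those called in neither were Dusp4, Dusp6 (-0.08 ± 0.21 and -0.21 ± 0.21), Spry1, Spry2, Spry4 and Etv4. These were also named after their values were seen.

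Sodium channel genes, whose proteins bind the FGF homologous factors, were tested for 6 of 9 listed members. In LTR 5 fell, with a median of -2.59, and in NF1 1 fell, with a median of -1.65. The beta subunit gene Scn3b averaged 0.556 ± 0.375 CPM in LTR, 0.716 ± 0.555 CPM in NF1 and 7.77 ± 0.426 CPM in NSC (-3.81 ± 0.76 and -3.43 ± 0.74, with -4.12 in NF1 without NF1 2). Scn8a fell in LTR (-1.23 ± 0.31; adjusted p = 0.0146) and was not called in NF1 (-0.50 ± 0.30; adjusted p = 0.253). Scn1a and Scn2a1 were among the other members that fell in LTR, named after their values were seen. Scn1a was at or below 0.0597 CPM in LTR against 0.469 to 1.02 CPM in NSC, and it passed the filter through NSC. Without NF1 2, 7 members passed the filter and 5 of them were called in NF1, beside 42.2% of all genes. The 5 include Scn1a and Scn2b, which passed the filter through NSC, so this count is partly set by the filter. Scn2b held 0 counts in LTR and NF1 and 47 in NSC. In NF1 against LTR no gene of the 6 lists was called by edgeR.

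Across the 9 libraries, the genes whose log2 CPM (prior count of 2) followed each FGF gene most closely were found among genes with a mean of at least 10 CPM. For Fgfr3 these were Stox2 (Pearson r = 0.9985) and Notch3 (0.9964), a Notch receptor, and both repeated the high value of NF1 2: Notch3 was at 2.35, 28.9 and 1.16 CPM in NF1 1, 2 and 3. For Fgfr2 they were Rtn1 (0.9957) and Slc7a2 (0.9953), for Fgfr1 Adam23 (0.9954) and Lamb2 (0.9941), for Fgfrl1 Parp12 (0.9947) and Lrrn1 (0.9937), and for Fgf1 Clu (0.9942) and Sparcl1 (0.9931), genes with strong expression in astrocytes. Fgf2 was followed by Cog5 (0.9837) and Zfp275 (0.9672), which shared its low value in LTR 2, and Fgfbp3 by Stx6 (0.9669) and Dmap1 (0.9647), which shared its high value there. The closest genes to Fgf13 were less alike, Athl1 at 0.9069 and Fuca2 at 0.8958.

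Within the FGF genes the 5 that fell in LTR ran together, with r from 0.90 (Fgfr3 and Fgfrl1) to 0.97 (Fgfr2 and Fgfr3, Fgfr2 and Fgf1, Fgfr1 and Fgfrl1). Fgf13 and Fgf2 were less close to them, and Fgf2 and Fgfbp3 ran against each other (r = -0.68). These coefficients describe 9 libraries that fall into separate groups and share libraries and depth, and they carry no test.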

How the data were processed

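The 9 libraries were made from RNeasy Plus RNA with an NEBNext Ultra kit, per the labels' protocols. The authors deposited raw counts for each gene. The aligner STAR 2.5.2a, the counter HTSeq, the package DESeq2 1.8.2 and the builds GRCm38 and mm10 are listed in the submitters' processing notes. No source used here gives the counting mode, the annotation release or the strand setting, and the kit does not keep the strand. Total counts per library (28600479 to 57231024) set the floors of 3 counts given in the text.

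All 9 libraries entered one model with 3 groups in edgeR 4.0.16 under R 4.3.3, with TMM scaling and filterByExpr (minimum count 10). Pairs of groups were compared by its quasi-likelihood F test, p-values were adjusted by Benjamini and Hochberg's method over 15696 genes, and the F statistic gave the SE of each log2 fold change. The fit was tested on simulated data. The p-values measure the spread between cultures. No library was a copy of another (chi-square per degree of freedom 13.4 to 395.2 within groups). Coordinates and exon lengths are from GENCODE M21, and promoter sequences from RefSeq (GRCm38.p6).

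All 10 FGF genes are named. From each pathway list the text names, for each comparison, the 2 called genes with the smallest adjusted p and the most abundant gene not called, and for each tested FGF gene the 2 closest genes across libraries. Some genes that this rule names are not reported here. Members and lists were chosen with earlier results of these data known.

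As alternatives, the fit was replaced by DESeq2 1.42.0 or limma-voom (limma 3.58.1), the scaling or the filter was changed (none, or 10 CPM in 3 libraries), only the 6 libraries of a comparison were fitted, replicate numbers entered as a block, single libraries were left out, and the longest transcript served as gene length. Leaving NF1 2 out of the list counts was chosen after seeing the data.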

Additional observations from a re-analysis of the deposited data

How the results depend on the processing

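Of 426 recomputed values, 408 kept direction and side of the threshold. In LTR against NSC, Fgfr1, Fgfr2, Fgfr3, Fgfrl1 and Fgf1 kept call and direction under all 18 alternatives, and leaving out single libraries gave 5 to 7 called FGF genes and 3281 to 7640 called genes in all. In NF1 against NSC these ranges were 3 (without NF1 1) to 7 FGF genes and 1752 to 6900 genes (6900 without NF1 2), and the filter of 10 CPM gave 2103 genes. In NF1 against LTR, where edgeR called none, DESeq2 called 330 genes and 3 FGF genes, limma-voom 1 gene, no filter 52, and leaving out single libraries 0 to 34 (34 without NF1 2). Without NF1 2, the calls in NF1 against NSC came to 10 of 15 heparan sulphate enzymes, 6 of 21 adaptors and transducers and 5 of 7 sodium channel genes, beside 42.2% of all genes. Hs3st1, Scn1a and Scn2b, included in these counts, passed the filter through NSC. Fgfr3 in NF1 against NSC passed with limma-voom (-5.12, adjusted p = 0.00772), and Fgf2 passed in the fit of 6 libraries (adjusted p = 0.0192).

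Signs turned only for genes not called. Leaving out single libraries gave ranges of -0.47 (without LTR 1) to 0.94 for Fgf13 and -0.15 (without LTR 2) to 1.29 for Fgfbp3 in LTR against NSC. In NF1 against LTR they were -0.13 to 0.36 for Fgfr1 and -0.01 to 0.13 for Fgfrl1 (both lowest without NF1 2) and -1.35 to 0.15 for Fgf2, which was at 0.26 with limma-voom. With the longest transcript as gene length, the Fgfr2 share was 20.9% in NSC and the Fgfr4 share 0.0706% in NF1. The causes were not tested.

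With the replicate number as a block (replicate block), 3477 genes in LTR against NSC and 1942 in NF1 against NSC were called, and the 5, 5 and 0 called FGF genes were the same genes. Libraries of the same number correlated between -0.18 and 0.12, and those of different numbers between -0.13 and 0.13. These values show no pairing by number, but with 3 libraries a group they cannot exclude it.

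With 3 libraries a group, Fgfr4 and Fgf5 lay below the filter, and the SE of Fgfr3 in NF1 against NSC was 1.29 with NF1 2 and 0.52 without it. No Fgf5 count in NSC allows up to 0.0541 to 0.0804 CPM per library. Lane and group are confounded for every comparison with NSC, and overlapping exons leave Fgf2 with Nudt6, Fgfr2 with Ctbp2 and Fgfr3 with G630022F23Rik uncertain.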
